A study of Mus musculus with 6 samples.

Results

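The integrated stress response was followed here through 34 mouse genes. They cover kinases that phosphorylate the translation initiation factor eIF2, phosphatase subunits that reverse this, and the ATF4 branch of transcription factors. They also cover genes of serine, one-carbon and amino acid metabolism and transport that ATF4 is known to act on. The genes were taken by symbol from the deposited table, and all 34 were found among its 23079 gene rows. The table holds 6 RNA sequencing libraries from midbrain dopaminergic neurons of C57BL/6 mice. In 3 knockdown libraries the animals had received adeno-associated virus of serotype 1 with a short hairpin RNA against Satb1 and EGFP, and in 3 control libraries the same virus type with a scrambled hairpin and EGFP. Satb1 encodes a chromatin organiser. Both groups came from Dat bacTRAP animals, a line in which a tagged ribosomal protein is placed under control sequences of the dopamine transporter gene, and the labels name total RNA and dissection of the substantia nigra pars compacta and ventral tegmental area from slices of 1 mm. The labels state 3 mice aged 4 months for the 6 libraries and do not tie a library to a mouse, so the p-values below describe spread among libraries and may not include that among animals. The sample titles speak of siRNA where the treatment text names hairpins.

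When cells meet a shortage of amino acids, misfolded protein, heme shortage or mitochondrial stress, one of several kinases phosphorylates eIF2, general translation slows, and the messenger RNA of ATF4 is translated more. ATF4 pairs with other basic leucine zipper proteins and binds composite C/EBP-ATF response elements in genes for amino acid uptake, for serine, asparagine and proline synthesis, and for mitochondrial folate metabolism. In the brain, de novo serine synthesis is best known from astrocytes, which supply neurons. Much of the pathway is controlled by translation and phosphorylation, which RNA counts do not measure.

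Some of these response elements lie close to transcription start sites, and the core TGATGNAA (N is any base), searched on both strands with no other motif, was present in a promoter of 8 of the 30 members that the RefSeq promoter table of GRCm38.p6 holds (26.7%), against 4.51% of 27025 genes in that table and 2.94% of 13117 tested genes. Promoters ran from 250 bases before to 50 bases after a start site. Of the members whose RNA was higher in the knockdown, 3 of 14 (21.4%) held the core, and of those not called 5 of 16 (31.2%): Atf3, Nupr1, Trib3, Pycr1 and Slc7a11, the last with 2 cores in 1 promoter. The 3 sites in members that were higher are shown with 11 bases on each side, in the direction of the gene, with the core in capitals, because Asns and Chac1 are classical targets of ATF4 through such elements. The Asns window is chr6:7693214-7693243 on the minus strand, with the core starting 23 bases before the start site. The Chac1 window is chr2:119351038-119351067 on the plus strand, with the core, on the opposite strand, 193 bases before it. The Vldlr window is chr19:27216809-27216838 on the plus strand, with the core, also on the opposite strand, 200 bases before it. Vldlr has 2 promoters in the table, and this site belongs to the later start site. By GENCODE M21, Vldlr starts at 27216484 and Asns, on the minus strand, at 7693254, so the Vldlr and Asns windows lie inside the annotated genes. A match of letters is not evidence of binding, and the comparison carries no test.
Asns: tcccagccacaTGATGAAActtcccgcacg
Chac1: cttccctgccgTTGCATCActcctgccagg
Vldlr: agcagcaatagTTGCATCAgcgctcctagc

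Gene counts summed to between 147486754 and 164554674 in knockdown libraries and between 160792736 and 170351145 in control libraries, so that 1 count was worth between 0.00557 and 0.00672 CPM (gene counts divided by the library's total after adjustment by the trimmed mean of M-values, TMM). Satb1 had 82.9, 166 and 61.2 CPM in knockdown libraries 1 to 3, against 351, 349.6 and 319.8 CPM in control libraries 1 to 3, and knockdown library 2 kept the most. Markers of dopamine neurons were all detected. Summed over 12 genes they lay between 11000 and 13900 CPM in the knockdown and between 17300 and 19900 CPM in controls. Most of this sum came from Aldh1a1, Slc6a3, Th and Ddc. Of the 12, 6 were called lower by edgeR at an adjusted p under 0.05 (50%, against 12.6% of all tested genes) and 0 higher. The median log2 fold change of the 12, knockdown over control, was -0.35, and those of Nr4a2, En2 and Lmx1b were above 0. Markers of oligodendrocytes lay between 649 and 730 CPM in the knockdown and between 420 and 472 CPM in controls. In such bulk samples, fewer cells of a type and less RNA per cell cannot be told apart.

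Of the 34 members, 16 were higher in the knockdown (47.1%, edgeR quasi-likelihood test, adjusted p under 0.05), against 8.48% of all 16766 tested genes. The members were chosen with earlier results of these data known, so the shares in this paragraph are descriptive and not an independent test. None was called lower by edgeR in the main test, where 12.6% of all tested genes were, and 1 member, Eif2ak1, was lower at an unadjusted p under 0.05. DESeq2 and limma-voom also called none lower, and 1 alternative, described in the closing section on processing, called Eif2ak1 lower. All 34 members passed the filter on low counts. Their median log2 fold change, knockdown over control, was 0.47, against 0.01 for all tested genes, and 29 of the 34 values were above 0. In 21 members (61.8%) all knockdown libraries lay on one side of all control libraries, against 38.7% of all tested genes. The 16 higher members spanned 1.25-fold to 4.27-fold with a median of 1.72-fold, and 3 of them, Phgdh, Mthfd2 and Slc7a1, changed at least 2-fold, a size reached by 2.04% of all tested genes in this direction. With total-count scaling, which moves the median of all tested genes to 0.18 and the share of higher genes to 16.5% of those tested, 18 members were higher and the median of the members was 0.63.

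**Figure D1:**
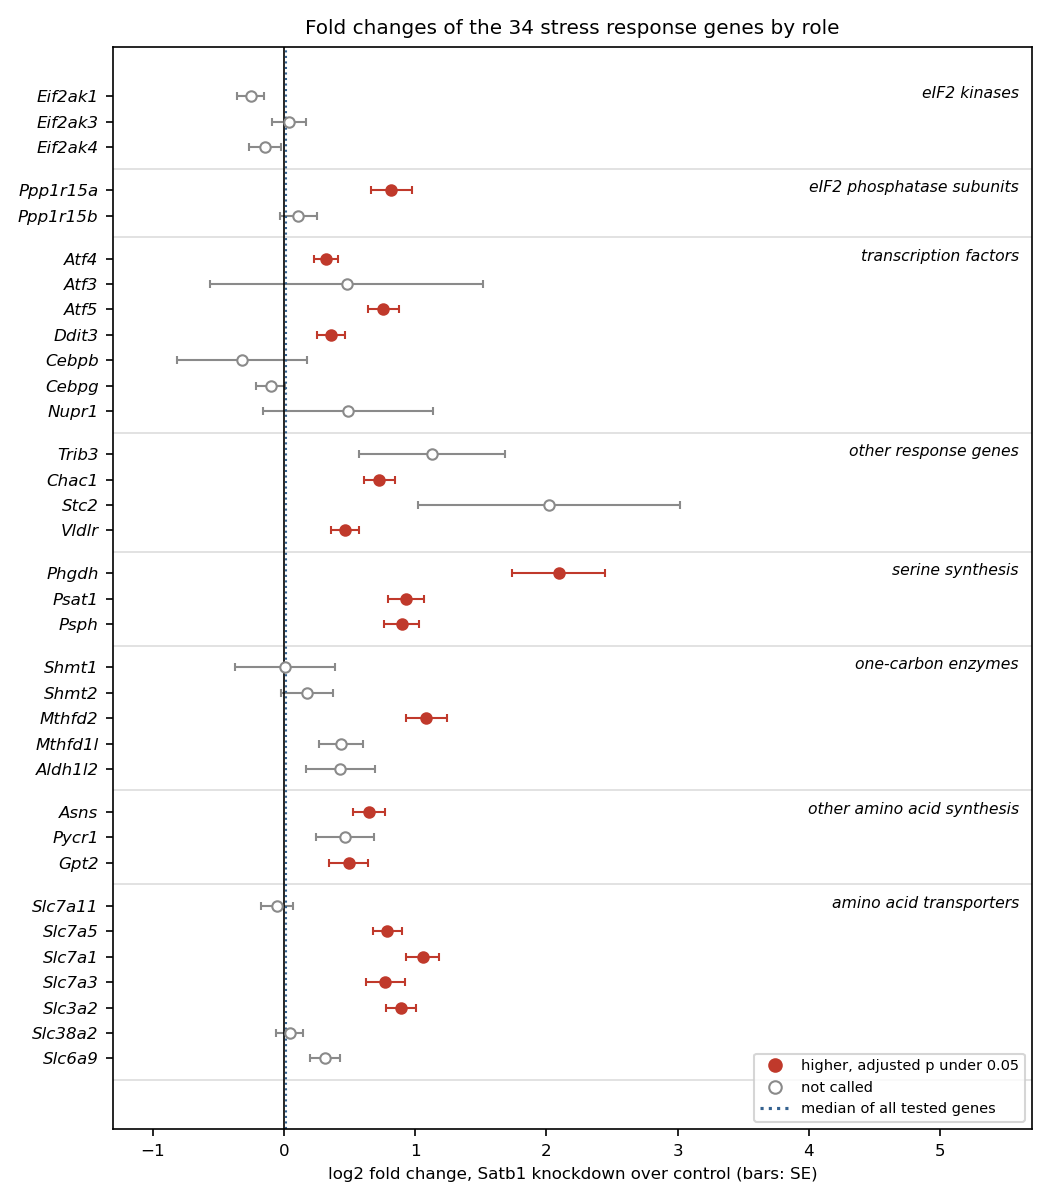
Log2 fold change, knockdown over control, of each of the 34 members (horizontal axis, with SE bars), grouped by role down the page; filled points are called higher by edgeR at an adjusted p under 0.05, open points are not called, and the dotted line is the median of all 16766 tested genes. All 3 serine synthesis genes and 4 of 7 transporters are filled, and none of the 3 eIF2 kinases among the members is.

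Of the 16 higher members, 10 are enzymes or transporters of serine, folate and amino acid metabolism, and the sensors at the top of the pathway were not called. The member eIF2 kinases are Eif2ak1 (HRI, sensitive to heme), Eif2ak3 (PERK, in the endoplasmic reticulum) and Eif2ak4 (GCN2, activated by uncharged transfer RNA). Eif2ak1 had 60.1, 62.7 and 52.6 CPM in knockdown libraries 1 to 3, against 71.6, 67.8 and 69.7 CPM in control libraries 1 to 3. The groups did not overlap, and the log2 fold change of -0.25 ± 0.10 (SE) missed the threshold (adjusted p = 0.0959, edgeR). Eif2ak4 averaged 15.7 ± 0.33 CPM in the knockdown and 17.3 ± 0.74 CPM in controls (SD, n = 3 each), with a log2 fold change of -0.14, and Eif2ak3 averaged 15.2 ± 1.63 CPM in the knockdown and 14.8 ± 0.32 CPM in controls, with a log2 fold change of 0.04. Neither passed the test, and the sign of Eif2ak4 turned to 0.02 with total-count scaling. Eif2ak2 (PKR), an eIF2 kinase that is not a member, averaged 8.92 CPM in the knockdown and 7.88 CPM in controls. Its log2 fold change of 0.18 did not pass either. These are RNA levels only, and kinase activity was not measured.

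Of the 2 phosphatase subunits, 1 rose. Ppp1r15a encodes GADD34, the stress-inducible subunit that directs protein phosphatase to eIF2. It had 13.5, 11.2 and 13.1 CPM in knockdown libraries 1 to 3, against 7.98, 6.60 and 6.87 CPM in control libraries 1 to 3. Every knockdown library was above every control library, with a log2 fold change of 0.82 ± 0.16 (SE; edgeR, adjusted p = 0.00336). Ppp1r15b, the constitutive subunit CReP, averaged 26.0 ± 3.40 CPM in the knockdown and 24.1 ± 3.67 CPM in controls (SD, n = 3 each). Its groups overlapped and its log2 fold change of 0.11 did not pass. The difference between these 2 genes was not tested.

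Among the transcription factors, Atf4, Atf5 and Ddit3 rose. Atf4 was the most abundant member in both groups per length of exon, at 158 CPM per kilobase in the knockdown and 126 CPM per kilobase in controls. It had 287, 266 and 265 CPM in knockdown libraries 1 to 3, against 236, 215 and 203 CPM in control libraries 1 to 3. The groups did not overlap, and the log2 fold change was 0.32 ± 0.09 (SE; edgeR, adjusted p = 0.0244). Ddit3 encodes CHOP, a partner of ATF4 linked to cell death under lasting stress. It had 55.1, 53.4 and 52.1 CPM in knockdown libraries 1 to 3, against 46.5, 38.1 and 40.6 CPM in control libraries 1 to 3, also without overlap, and a log2 fold change of 0.36 ± 0.11 (SE; edgeR, adjusted p = 0.0316). Both are small changes, and both calls were lost when some single libraries were left out, which also leaves fewer libraries in the test. The call for Atf4 was lost without knockdown library 1 (log2 fold change 0.29), control library 2 (0.31) or control library 3 (0.27). That for Ddit3 was lost without knockdown library 1 (0.35), knockdown library 2 (0.36), control library 2 (0.30) or control library 3 (0.34). With total-count scaling Atf4 was at 0.49.

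Atf5, a basic leucine zipper factor controlled much like ATF4, rose 1.69-fold. Its level was 34.4, 33.2 and 31.2 CPM in knockdown libraries 1 to 3, against 20.1, 21.3 and 17.0 CPM in control libraries 1 to 3. The libraries of each group lay close together and far from the other group, with a log2 fold change of 0.76 ± 0.12 (SE; edgeR, adjusted p = 0.00125). Exons of Atf5 share 164 bases (8.23% of their length) with genes on the opposite strand, and one of these, Nup62, was also higher, by 0.74. Exons of Ddit3 share 81 bases (9.1%) with opposite-strand genes, among them Mars, which was higher by 0.73. Whether the counting used strand is not given, and if it did not, reads in shared bases cannot be told apart. The other factors did not pass: Cebpg, a partner of ATF4, averaged 57.5 CPM in the knockdown and 61.6 CPM in controls, and its log2 fold change was -0.10 (0.07 when scaled by total counts). Cebpb, Atf3 and Nupr1 were each under 1 CPM on average, with log2 fold changes of -0.32, 0.48 and 0.49 and standard errors of 0.49, 1.04 and 0.65. Atf3 had 2 counts in knockdown library 1 and 56 in knockdown library 2.

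Among the other response genes, which are known targets of the pathway, Chac1 and Vldlr rose. Chac1, which degrades glutathione, had 32.5, 30.1 and 31.0 CPM in knockdown libraries 1 to 3, against 20.1, 19.3 and 17.1 CPM in control libraries 1 to 3. The groups were well apart, and the log2 fold change was 0.73 ± 0.11 (SE; edgeR, adjusted p = 0.00117). Vldlr, a receptor for reelin and lipoproteins, had 52.9, 58.5 and 62.2 CPM in knockdown libraries 1 to 3, against 39.6, 45.8 and 40.5 CPM in control libraries 1 to 3. Again no libraries overlapped, with a log2 fold change of 0.46 ± 0.11 (SE; edgeR, adjusted p = 0.00986). Trib3, a pseudokinase that restrains ATF4, was at 1.15 ± 0.46 CPM in the knockdown and 0.52 ± 0.22 CPM in controls (SD, n = 3 each), and its groups overlapped. Stc2, a secreted glycoprotein, was at 0.54 ± 0.25 CPM in the knockdown and 0.13 ± 0.16 CPM in controls, also with overlap. Neither passed (log2 fold changes 1.13 and 2.02, edgeR adjusted p = 0.175 and 0.176). Without control library 1, which had the most Stc2 of the controls, Stc2 was called at 3.74.

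All 3 enzymes of serine synthesis rose. Phgdh (gene identifier 236539; minus strand of chromosome 3, 98313170 to 98339990 in GRCm38) encodes phosphoglycerate dehydrogenase, which takes the first step out of glycolysis. It had 9.66, 10.4 and 16.9 CPM in knockdown libraries 1 to 3, against 1.69, 2.08 and 4.88 CPM in control libraries 1 to 3. The lowest knockdown library was above the highest control library, the level was highest in library 3 of each group, and the log2 fold change was 2.09 ± 0.35 (SE; edgeR, adjusted p = 0.0018), or 4.27-fold. Without control library 3 it was 2.71. Psat1 (107272; minus strand of chromosome 19, 15904678 to 15947337), the aminotransferase of the second step, had 97.7, 100.6 and 139.7 CPM in knockdown libraries 1 to 3, against 53.3, 60.5 and 63.3 CPM in control libraries 1 to 3. Knockdown library 3 stood above the others, no libraries overlapped, and the log2 fold change was 0.93 ± 0.14 (SE; edgeR, adjusted p = 0.000791). Psph (100678; minus strand of chromosome 5, 129765558 to 129787449), the phosphatase that releases serine, had 18.8, 18.1 and 18.8 CPM in knockdown libraries 1 to 3, against 8.90, 10.99 and 9.98 CPM in control libraries 1 to 3. Knockdown libraries were nearly equal here, with a log2 fold change of 0.90 ± 0.13 (SE; edgeR, adjusted p = 0.000856). Exons of Psph share 452 bases (26.1%) with Cct6a on the opposite strand, and Cct6a averaged 43.0 CPM in both groups. Per kilobase of exon, Psat1 stood at 38.4 CPM in the knockdown and 20.1 CPM in controls, Psph at 10.7 CPM in the knockdown and 5.75 CPM in controls, and Phgdh at 6.50 CPM in the knockdown and 1.52 CPM in controls. RefSeq names 1 pseudogene of Phgdh, and how reads with several alignments were counted is not given in the sources used here.

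Because serine synthesis is prominent in astrocytes, their markers are set beside these values. Of 12 astrocyte markers, 2 were higher, Aqp4 and S100b, and 1 was lower, Slc1a2, a glutamate transporter, where 8.48% of all tested genes were higher and 12.6% lower; 11 of the 12 log2 fold changes were above 0, with a median of 0.51 and a highest value of 0.97. The summed level lay between 519 and 633 CPM in the knockdown and between 482 and 590 CPM in controls, and most of it came from Slc1a2 and Aldoc. No astrocyte marker was at 0 in all libraries. The number of higher markers was 0 without knockdown library 1 or control library 3 and 1 without knockdown library 3, and it was 7 when scaled by total counts. The part of astrocyte RNA in the values of Phgdh, Psat1 and Psph was not tested.

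**Figure D2:**
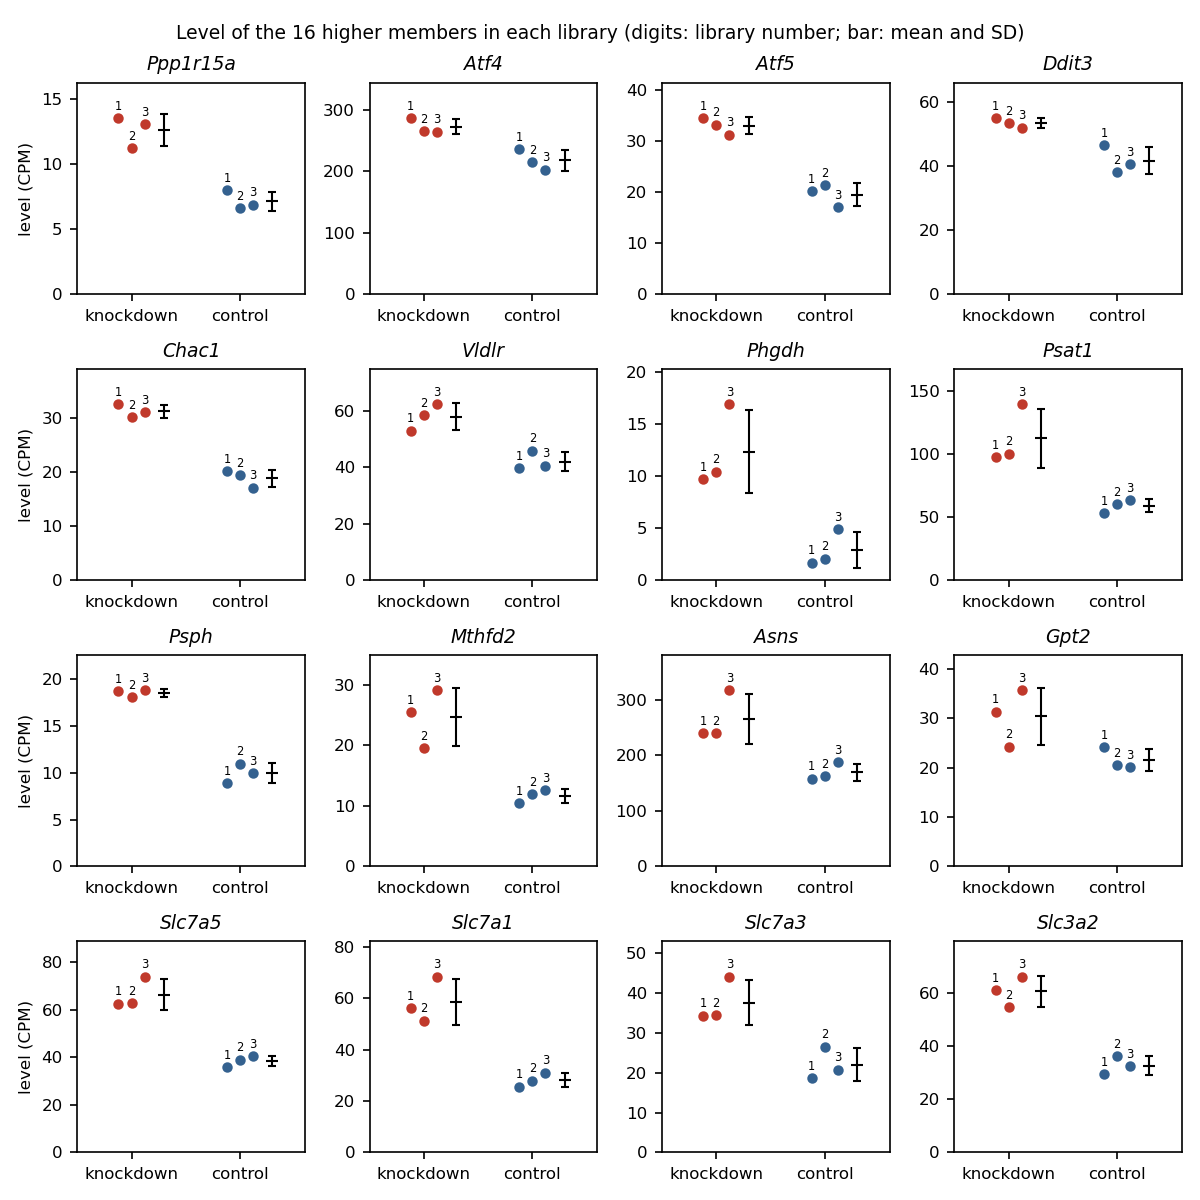
Level in CPM (vertical axis, from 0) of the 16 members that were higher, 1 panel a gene, with the 3 knockdown libraries at the left and the 3 control libraries at the right; digits give the library number and bars the mean and SD. In every panel the lowest knockdown library lies above the highest control library, by the least for Gpt2, at 24.3 against 24.2 CPM. The genes were chosen by the test on these same values, so the separation is no further support for the calls.

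Of 5 one-carbon enzymes, 1 rose. Mthfd2, the mitochondrial methylenetetrahydrofolate dehydrogenase, had 25.5, 19.6 and 29.0 CPM in knockdown libraries 1 to 3, against 10.4, 11.9 and 12.6 CPM in control libraries 1 to 3. Knockdown library 2 was the lowest of its group and still well above every control, and the log2 fold change was 1.09 ± 0.16 (SE; edgeR, adjusted p = 0.00072). Mthfd1l, which releases formate in mitochondria, averaged 15.7 ± 3.60 CPM in the knockdown and 11.6 ± 1.01 CPM in controls (SD, n = 3 each), without overlap. Its log2 fold change of 0.44 missed the threshold (edgeR, adjusted p = 0.0852), and it was called by DESeq2 (0.45), with total-count scaling (0.60) and among genes of at least 1 CPM (0.48). Aldh1l2, a mitochondrial formyltetrahydrofolate dehydrogenase, was at 0.43. Shmt2 and Shmt1, the mitochondrial and cytosolic enzymes that turn serine into glycine, were at 0.18 and 0.01. None of these 3 passed, and their groups overlapped.

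Among the other synthesis enzymes, Asns and Gpt2 rose. Asns, asparagine synthetase, was the second most abundant member per kilobase of exon, at 123 CPM in the knockdown and 78.3 CPM in controls. It had 239.8, 240.3 and 317 CPM in knockdown libraries 1 to 3, against 158, 163 and 187 CPM in control libraries 1 to 3. Knockdown library 3 was again the highest, and the log2 fold change was 0.65 ± 0.12 (SE; edgeR, adjusted p = 0.0028). Gpt2, mitochondrial alanine aminotransferase, had 31.3, 24.3 and 35.7 CPM in knockdown libraries 1 to 3, against 24.2, 20.5 and 20.1 CPM in control libraries 1 to 3. Knockdown library 2 and control library 1 nearly met, and the log2 fold change was 0.49 ± 0.15 (SE; edgeR, adjusted p = 0.0309). The Gpt2 call was lost without knockdown library 1 (0.48), knockdown library 3 (0.38), control library 2 (0.46) or control library 3 (0.44). Pycr1, the last enzyme of proline synthesis, averaged 5.17 ± 0.14 CPM in the knockdown and 3.75 ± 0.80 CPM in controls (SD, n = 3 each). Its groups did not overlap, but the log2 fold change of 0.46 did not pass (edgeR, adjusted p = 0.161).

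Of 7 amino acid transporters, 4 rose, and they are those for large neutral and for cationic amino acids. Slc7a1, the cationic transporter CAT1, had 56.0, 51.3 and 68.4 CPM in knockdown libraries 1 to 3, against 25.5, 27.9 and 31.0 CPM in control libraries 1 to 3. The groups were far apart, with a log2 fold change of 1.06 ± 0.13 (SE; edgeR, adjusted p = 0.0004). Slc7a3, the cationic transporter CAT3, had 34.3, 34.4 and 44.2 CPM in knockdown libraries 1 to 3, against 18.6, 26.6 and 20.8 CPM in control libraries 1 to 3. Its lowest knockdown library was above its highest control library, and the log2 fold change was 0.77 ± 0.15 (SE; edgeR, adjusted p = 0.00376).

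The heavy and light chains of the neutral amino acid exchanger moved together. Slc3a2, the heavy chain CD98, had 61.4, 54.7 and 66.4 CPM in knockdown libraries 1 to 3, against 29.4, 36.4 and 32.5 CPM in control libraries 1 to 3. Slc7a5, the light chain LAT1, had 62.5, 62.8 and 74.0 CPM in knockdown libraries 1 to 3, against 36.0, 39.0 and 40.4 CPM in control libraries 1 to 3. Neither gene had overlapping groups, and both were highest in knockdown library 3. The log2 fold changes were 0.89 ± 0.12 for Slc3a2 and 0.79 ± 0.11 for Slc7a5 (SE; edgeR, adjusted p = 0.000504 and 0.000592). Slc7a11, the light chain of the cystine and glutamate exchanger that also pairs with CD98, was at 17.3 ± 0.30 CPM in the knockdown and 17.9 ± 1.58 CPM in controls (SD, n = 3 each). Its log2 fold change was -0.05 (0.12 when scaled by total counts) and did not pass. Slc38a2, the sodium-coupled neutral transporter SNAT2, averaged 83.3 CPM in the knockdown and 80.8 CPM in controls, with overlap and a log2 fold change of 0.04. Slc6a9, the glycine transporter GLYT1, averaged 22.2 ± 1.26 CPM in the knockdown and 17.8 ± 0.37 CPM in controls (SD, n = 3 each). Its groups did not overlap, its log2 fold change of 0.31 missed the threshold (edgeR, adjusted p = 0.0706), and it was called by DESeq2 (0.33), with total-count scaling (0.48) and among genes of at least 1 CPM (0.36). Of its exon bases, 52.7% are shared with opposite-strand genes, among them Ccdc24, which averaged 8.88 CPM in the knockdown and 6.65 CPM in controls (log2 fold change 0.42, not called).

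Capillary endothelium is also rich in LAT1, CD98 and CAT1. Endothelial markers summed to between 5.40 and 8.09 CPM in the knockdown and between 4.05 and 6.29 CPM in controls over 10 genes. Their median log2 fold change was 0.68, with 8 of the 10 values above 0. Of these, 1, Cdh5, was called higher (10%, against 8.48% of all tested genes). It averaged 0.53 CPM in the knockdown and 0.065 CPM in controls. That call was lost without knockdown library 1 or 3 or control library 1 or 3. Of 12 oligodendrocyte markers, 10 were higher (83.3%, against 8.48% of all tested genes), with a median log2 fold change of 0.62. Of 12 microglia markers, 2 were higher and 1, P2ry12, was lower (16.7% and 8.33%, against 8.48% and 12.6% of all tested genes). Their median log2 fold change was 1.07, with 11 of the 12 values above 0. The summed level lay between 26.4 and 33.9 CPM in the knockdown and between 25.9 and 27.9 CPM in controls. P2ry12 made up the largest part, at 13.77 CPM in the knockdown and 18.85 CPM in controls. The next, Tyrobp, averaged 2.84 CPM in the knockdown and 1.94 CPM in controls. The microglia calls were unstable, with 0 higher without knockdown library 1, knockdown library 3 or control library 1, and 1 without control library 2 or 3. There were 4 without knockdown library 2 or when scaled by total counts, and 5 with DESeq2. The lower microglia call was lost when scaled by total counts and without any single library except knockdown library 2. No marker of these 3 cell types was at 0 in all libraries. Their part in the values of the transporters and other members was not tested.

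**Figure D3:**
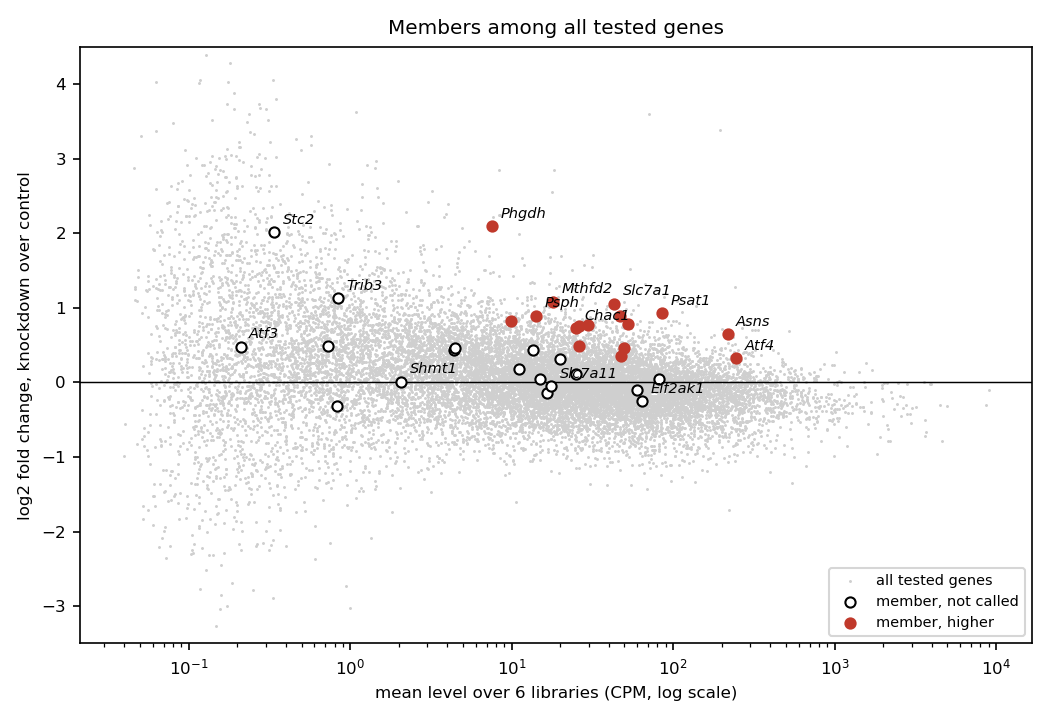
Log2 fold change, knockdown over control (vertical axis), against the mean level over 6 libraries in CPM (horizontal log axis), for all tested genes (small grey points) and the 34 members (large points, filled where called higher). The vertical axis ends at -3.5 and 4.5, which leaves out 36 genes, none of them a member. The filled members lie between 1.25-fold and 4.27-fold, and the 5 members under 1 CPM are open.

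By library, the median log2 distance from the control mean, on log2 of CPM plus 0.1, was 0.40, 0.48 and 0.63 in knockdown libraries 1 to 3 over all 34 members. Over the 16 higher members it was 0.76, 0.69 and 0.91 in the same libraries, so knockdown library 3 was highest in both and the order of the others differed. Without knockdown library 2, 15 members were higher.

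Related genes outside the list were set beside it, in lists also chosen with earlier results of these data known. Of 17 tested ATF4 and CHOP target genes that are not members, 4 rose (23.5%, against 8.48% of all tested genes), with a median log2 fold change of 0.31. Sesn2, an inhibitor of the growth kinase complex mTORC1 that also responds to p53, had 40.7, 33.7 and 51.4 CPM in knockdown libraries 1 to 3, against 15.6, 11.6 and 15.02 CPM in control libraries 1 to 3. It was 2.98-fold higher without overlap (edgeR, adjusted p = 0.000239). Cth, which makes cysteine from cystathionine, averaged 4.43 ± 1.14 CPM in the knockdown and 1.28 ± 0.50 CPM in controls (SD, n = 3 each), with a log2 fold change at 1.79 (edgeR, adjusted p = 0.00277). Slc1a4, a transporter of alanine, serine and cysteine, averaged 68.9 ± 8.88 CPM in the knockdown and 43.6 ± 4.44 CPM in controls, a log2 fold change of 0.66 (edgeR, adjusted p = 0.0027). The remaining 13 did not pass, and with total-count scaling 7 were higher.

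Of 20 cytosolic aminoacyl-tRNA synthetase genes, which charge transfer RNAs and are in part ATF4 targets, 5 rose and 2 fell (25% and 10%, against 8.48% and 12.6% of all tested genes), with a median of 0.18. Mars, for methionine, averaged 55.7 ± 4.69 CPM in the knockdown and 33.6 ± 1.80 CPM in controls, and Nars, for asparagine, 333 ± 54.6 CPM in the knockdown and 201 ± 19.2 CPM in controls (SD, n = 3 each). Both were 1.66-fold higher (edgeR, adjusted p = 0.000791 and 0.00151). Wars, for tryptophan, averaged 101 ± 11.7 CPM in the knockdown and 149 ± 17.6 CPM in controls, a log2 fold change of -0.56 (edgeR, adjusted p = 0.00491). Without control library 3, 8 were higher, and without knockdown library 1, control library 2 or control library 3, 1 was lower. Scaled by total counts, the list had 10 higher members and 1 lower.

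Of 19 genes of glycine cleavage and other folate enzymes, 3 rose and 1 fell (15.8% and 5.26%, against 8.48% and 12.6% of all tested genes). In either direction 21.1% were called, the same share as of all tested genes. Cbs, which joins serine and homocysteine to cystathionine, averaged 6.88 ± 1.89 CPM in the knockdown and 2.35 ± 0.77 CPM in controls (SD, n = 3 each), with a log2 fold change at 1.55 (edgeR, adjusted p = 0.00289). Slc19a1, the reduced folate carrier, averaged 9.78 ± 2.73 CPM in the knockdown and 4.40 ± 0.71 CPM in controls, a log2 fold change of 1.15 (edgeR, adjusted p = 0.00412). Mtrr, which reactivates methionine synthase, averaged 11.1 ± 1.18 CPM in the knockdown and 16.8 ± 1.21 CPM in controls, a log2 fold change of -0.59 (edgeR, adjusted p = 0.00962). The median of the 19 was 0.08. Scaled by total counts, 5 rose, and the fall of Mtrr was not called. Leaving out knockdown library 2, control library 2 or control library 3 gave 2 lower genes.

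For the eIF2 machinery and the other arms of the unfolded protein response, the shares of called genes were near those of all tested genes. Of 14 genes of eIF2, its exchange factor eIF2B and their regulators, 2 fell (14.3%, against 12.6% of all tested genes). Eif2b1, a regulatory subunit of eIF2B, had 16.7, 23.4 and 11.1 CPM in knockdown libraries 1 to 3, against 45.7, 42.6 and 43.8 CPM in control libraries 1 to 3. Every knockdown library was far below the controls, and the log2 fold change was -1.37 ± 0.20 (SE; edgeR, adjusted p = 0.000846). Impact, an inhibitor of GCN2 that is abundant in neurons, averaged 905 ± 64.7 CPM in the knockdown and 1160 ± 50.1 CPM in controls (SD, n = 3 each), with a log2 fold change at -0.36 (edgeR, adjusted p = 0.00957). With total-count scaling 1 of the 14 was lower and 1 higher, and DESeq2 called 4 lower.

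Of 20 genes of the ATF6 and IRE1 branches and of chaperones of the endoplasmic reticulum, 1 rose and 3 fell (5% and 15%, against 8.48% and 12.6% of all tested genes), with a median log2 fold change of -0.11. The chaperone genes Calr and Hyou1 fell, to 82.4 ± 4.09 CPM in the knockdown against 116 ± 13.0 CPM in controls for Calr, and to 40.6 ± 0.40 CPM in the knockdown against 54.4 ± 4.12 CPM in controls for Hyou1 (SD, n = 3 each). Canx, which encodes the membrane-bound relative of calreticulin, averaged 320.2 ± 17.2 CPM in the knockdown and 242 ± 22.1 CPM in controls, a log2 fold change of 0.40 (edgeR, adjusted p = 0.00993). Without control library 3, or with total-count scaling, 1 of the 20 was lower. No test of the difference between these lists and the members was made.

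**Figure D4:**
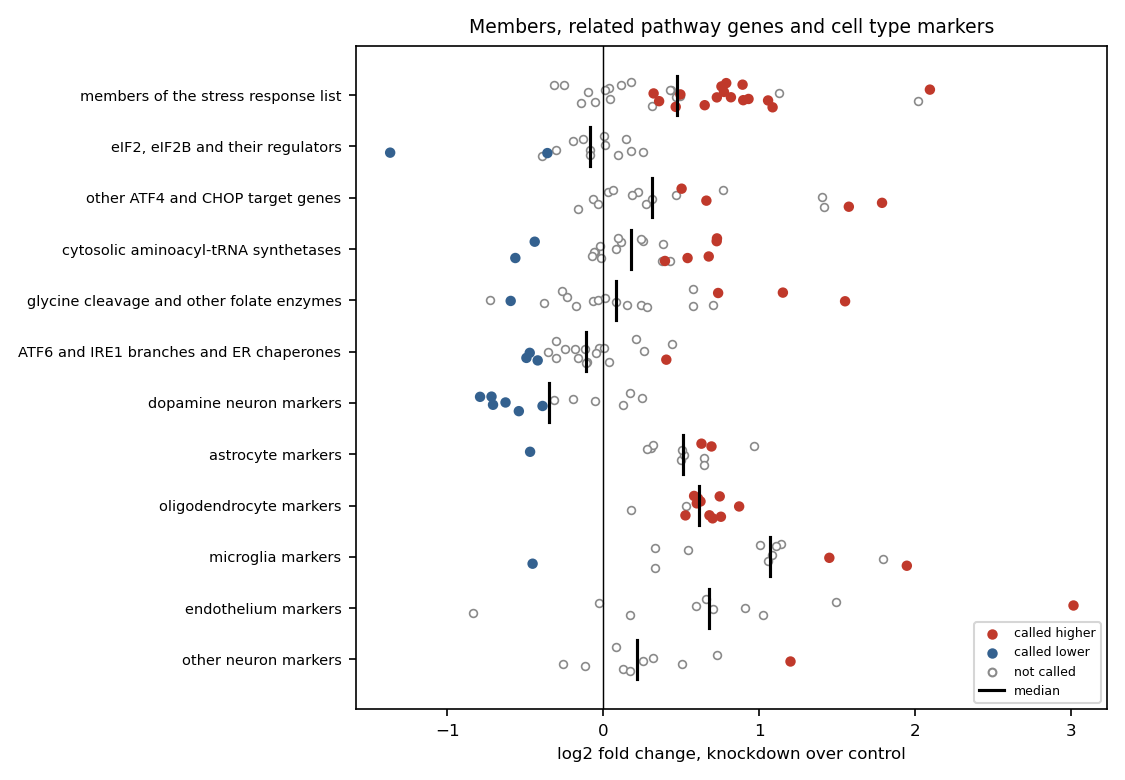
Log2 fold change, knockdown over control (horizontal axis), of each tested gene of the member list, of 5 related pathway lists and of 6 cell type marker lists (rows); red points are called higher, blue points lower, open points not called, and black bars are medians. The members have a median of 0.47, the ATF6 and IRE1 list of -0.11 and dopamine neuron markers of -0.35.

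**Figure D5:**
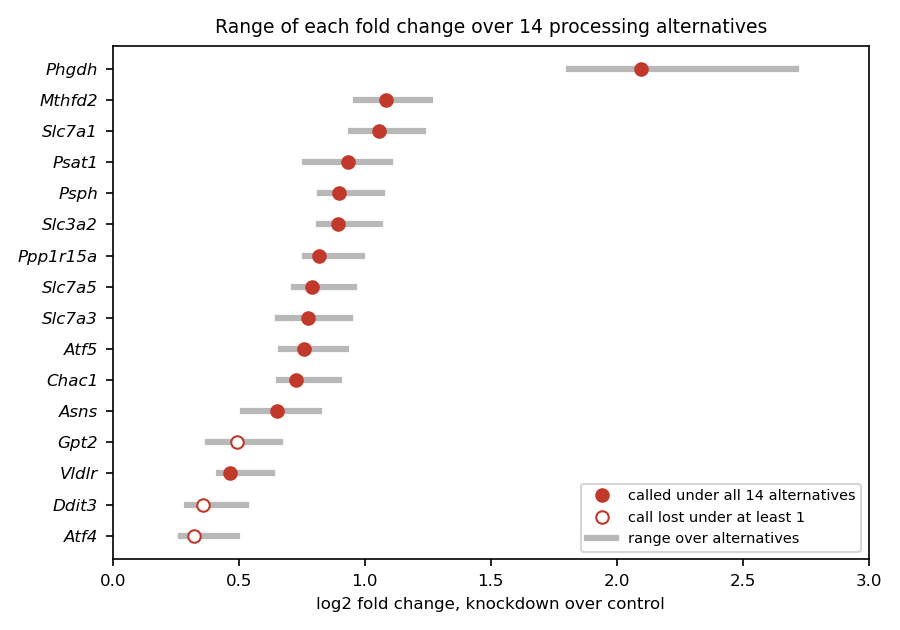
Log2 fold change, knockdown over control (horizontal axis), of the 16 higher members (rows), with grey bars for the range over 14 processing alternatives. The call of 13 genes was kept under every alternative (filled points), and that of Atf4, Ddit3 and Gpt2 was lost under at least 1 (open points).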

How the data were processed

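RNA was sequenced from 3 knockdown and 3 control libraries, grouped by their titles. The authors deposited whole-number counts per gene, and the submitters' processing notes name TopHat2 2.0.8 and mm10. The sources used here do not give the counting tool, strand or treatment of multiply aligned reads. Replicate libraries differed by more than sampling noise (chi-square per gene between 58.5 and 156).

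The deposited counts were tested with edgeR 4.0.16 in R 4.3.3 (quasi-likelihood F-test, 2-sided, TMM scaling, filterByExpr by group with a minimum count of 10 and a minimum total of 15), with Benjamini-Hochberg adjustment over 16766 genes at 0.05. Standard errors came from the F statistic. Alternatives were DESeq2 1.42.0, limma-voom (limma 3.58.1), other scalings, filters and dispersion, a replicate block, and leaving out each library. On average over genes, counting error was small beside the spread between libraries at this depth. It was not computed for single genes, and some members had few counts, such as Stc2 with 2 in control library 2. Exon lengths, overlaps and coordinates came from GENCODE M21 on GRCm38, the build also called mm10, in which all 34 members were found by symbol; 2 entries for Ddit3 were merged. Promoters came from RefSeq, matched by gene number.

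Every member is named; from each pathway list at most the 3 called genes with the smallest p are described, and other genes were named after their values were seen. The members and lists were chosen with earlier results of these data known.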

Additional observations from a re-analysis of the deposited data

How the results depend on the processing

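Over 14 alternatives, 13 of the 16 higher members kept their direction and their call, and Atf4, Ddit3 and Gpt2 kept their direction but lost the call when single libraries were left out. Leaving out 1 library gave between 13 and 17 higher members and 0 lower. Over all tested genes it gave between 804 and 1356 higher and between 1132 and 2054 lower. With total-count scaling 2770 genes were higher and 972 lower, against 1421 higher and 2115 lower with TMM. With the replicate number as a block, 16 members were higher and 1 was lower, Eif2ak1 (log2 fold change -0.26, adjusted p = 0.0469; over its other alternatives it was not called), 5 astrocyte markers were higher, and of all tested genes 11.5% were higher and 16.6% lower. Libraries with the same number deviated together with a correlation of 0.15, 0.02 and 0.21. It was -0.162 between knockdown library 1 and control library 3, and -0.185 between knockdown library 3 and control library 1. Knockdown library 2 was closest to control library 1, at 0.0586. The labels do not say that the numbers pair animals, so they were not taken as pairs in the main test. Whether libraries of the same number share an animal or a batch was not tested.

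Some members that were not called changed sign. With total-count scaling this was Eif2ak4 (0.0247), Cebpg (0.0716) and Slc7a11 (0.119), where the scaling moves all genes up; with limma-voom Atf3 (-0.619) and with the replicate block Atf3 (-0.067). Leaving out single libraries gave ranges across 0 for Eif2ak3 (-0.0144 to 0.134), Nupr1 (-0.147 to 1.11), Shmt1 (-0.33 to 0.276), Shmt2 (-0.0423 to 0.303), Slc7a11 (-0.0909 to 0.0228) and Slc38a2 (-0.0189 to 0.0893). The cause was not tested. With a mean of at least 1 CPM, 29 members had a value.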
